A study of Mus musculus with 6 samples.

Results

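The 6 ST8Sia genes of the mouse (St8sia1 to St8sia6) and Ncam1, which encodes the main carrier of polysialic acid, were followed in primary cultured renal tubule epithelial cells (RTECs) with and without TGF-β1. They make up 7 of the 46517 genes in the count files and were found by gene symbol. The set was chosen by its values in this same contrast of treated and CTL cultures, so the values below describe it and do not test it, and an adjusted p-value of a member gives only its place among all genes. The cultures were grown from kidneys of wild type FvB mice aged 4 to 6 weeks by the sample labels and were kept in serum-free medium for 24 h. The study's methods give a partly younger age range, and males. CTL cultures (n = 3) then served as the control, and TGF-β1–treated cultures (n = 3) received 50 ng/ml TGF-β1 for 24 h. No allele or transgene separated the groups. The labels do not say whether the 3 cultures of a group came from different mice, so p-values measure the spread between these cultures, which may be technical.

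Polysialic acid is a long, negatively charged chain of sialic acid built in the Golgi onto a few glycoproteins, above all the neural cell adhesion molecule NCAM. The chains weaken adhesion between cells and are abundant in developing tissues, the embryonic kidney among them. ST8SIA2 and ST8SIA4 are the polysialyltransferases that make the chains. The other ST8Sia enzymes add single or a few sialic acids: ST8SIA1 and ST8SIA5 act on gangliosides, ST8SIA3 on glycoproteins and glycolipids, and ST8SIA6 mostly on O-linked glycans.

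Because the ST8Sia enzymes are related, the coding sequences were compared first. St8sia2 and St8sia4 were the closest pair, with 684 of 1069 aligned coding bases identical (64%), and their longest identical run was 13 bases. The other 14 pairs shared 51.5% to 57.8%, with identical runs of at most 19 bases, which is shorter than the 50-base reads. Of the 5383 different 50-base stretches in St8sia2 transcripts, 0 occurred in a transcript of any other gene. The share was 0.414% for St8sia4, 0.867% for St8sia6, 1.28% for St8sia1 and 3.06% for Ncam1, and it was highest for St8sia3 (6.57%) and St8sia5 (6.23%). The stretch of 90 coding bases in which the 2 polysialyltransferases are most alike is printed here, 5′ to 3′, from the GRCm38 transcripts. It spans coding bases 829 to 918 of St8sia2 and 784 to 873 of St8sia4, and capitals mark the 19 bases that differ, against 71 that are the same.
St8sia2: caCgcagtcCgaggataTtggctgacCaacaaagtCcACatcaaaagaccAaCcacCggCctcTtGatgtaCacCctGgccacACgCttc
St8sia4: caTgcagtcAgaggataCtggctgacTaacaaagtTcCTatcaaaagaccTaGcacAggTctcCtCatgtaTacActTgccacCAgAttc
Even here the differing bases lie close enough together that reads of the 2 genes could be told apart.

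The 250 bases before the transcription start of both polysialyltransferases are printed next, since these genes had very unequal levels in the same cultures. They were taken from the RefSeq promoter table of GRCm38.p6 (chr7:74013683-74013932 for St8sia2 and chr1:95667595-95667844 for St8sia4, both on the minus strand), which held 4 of the 7 genes. Capitals mark CAGAC on either strand, letters that Smad proteins are known to bind.
St8sia2 promoter: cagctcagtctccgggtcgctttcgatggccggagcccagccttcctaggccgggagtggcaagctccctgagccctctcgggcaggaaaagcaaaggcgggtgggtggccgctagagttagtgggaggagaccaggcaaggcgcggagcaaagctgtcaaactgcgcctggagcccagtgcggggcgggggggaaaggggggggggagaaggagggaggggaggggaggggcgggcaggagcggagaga
St8sia4 promoter: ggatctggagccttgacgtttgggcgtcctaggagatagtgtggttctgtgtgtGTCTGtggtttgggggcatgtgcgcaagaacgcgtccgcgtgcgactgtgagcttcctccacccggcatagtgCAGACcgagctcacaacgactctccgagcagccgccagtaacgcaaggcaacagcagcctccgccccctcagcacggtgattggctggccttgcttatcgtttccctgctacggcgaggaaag
CAGAC occurred 2 times before St8sia4, 1 time before St8sia1, and 0 times before St8sia2 and St8sia6, and 42.2% of the 32851 promoters of this length held it. The St8sia6 window (chr2:13793521-13793770) precedes the RefSeq start but lies inside the gene span given below. The palindrome GTCTAGAC (in 0.167% of promoters), which overlaps CAGAC in part, and the E-box letters CAGGTG (in 17.2%) were in none of the 4 windows. G and C made up 68.8% of the St8sia2 window and 60.4% of the St8sia4 window, with a median of 52.4% over all promoters.

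Library totals on genes ran from 28313080 to 34183497 reads, and 3 reads corresponded to 0.0878 to 0.106 CPM, the number of reads of a gene scaled to the library total. CPM of the genes are given after TMM scaling, which corrects the totals for composition. Tubule epithelial markers (Epcam, Cdh1, Cdh16, Krt8, Krt18 and Pax8) summed to 960 to 2553 CPM in CTL and 839 to 2109 CPM in TGF-β1 cultures, so the labelled cell type was present. The proximal tubule genes Slc34a1, Slc5a2 and Slc22a6 had at most 10 reads in any library, while Lrp2 was at 69.6 ± 6.19 CPM in CTL (SD, n = 3). Fibroblast markers summed to 1259 to 2447 CPM in CTL and 1483 to 2806 CPM in TGF-β1 cultures. The replicate 2 cultures stood apart in both groups, with the lowest epithelial sum and the highest fibroblast sum. In bulk RNA, fewer cells of a type and less RNA per cell cannot be told apart. Same-numbered CTL and TGF-β1 cultures deviated together from their group means, so fits with the replicate number as a block are given where they differ. The labels do not state that these cultures are pairs. As a check on the treatment, 3 of 5 TGF-β target genes were higher and 0 lower. Skil and Smad7, both feedback inhibitors of the pathway, had log2 fold changes of 0.76 and 0.55 (edgeR adjusted p = 0.00379 and 0.014). The call of Smad7 was lost without CTL replicate 1 (edgeR adjusted p = 0.075) or TGF-β1 replicate 1 (0.0572).

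edgeR's quasi-likelihood test called 1854 of 15862 tested genes (11.7%) at an adjusted p-value under 0.05, of which 793 (5%) were higher and 1061 (6.69%) lower with TGF-β1. With library size alone as the scaling, 508 were higher and 1467 lower. Of the 7 genes, 4 had enough reads to be tested, and 3 (St8sia3, St8sia4 and St8sia5) did not. Among the 4, St8sia2 was called higher and St8sia6 lower. With the replicate number as a block, Ncam1 was also called higher, in a fit that called 34.2% of all tested genes. Nothing is read from these counts, because this contrast served to choose the genes. St8sia2 and St8sia6 had groups that did not overlap, which 35.1% of all tested genes shared.

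**Figure D1:**
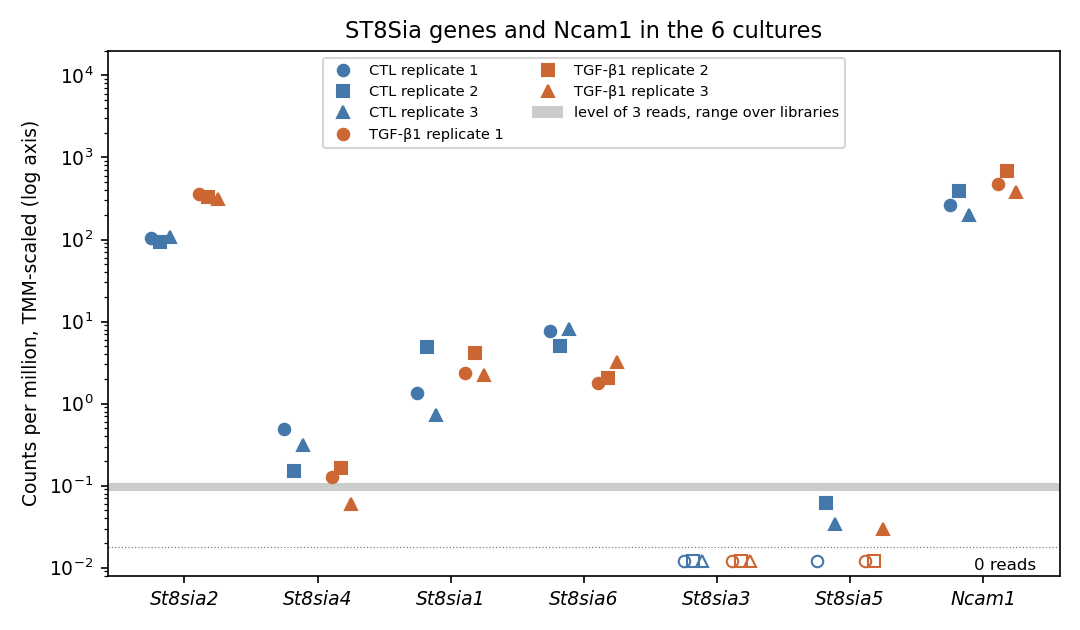
CPM of the 7 genes in each culture on a log axis, with CTL in blue, TGF-β1 in orange and a marker shape for each replicate number. The grey band is the level of 3 reads, and open symbols at the bottom are cultures with 0 reads. St8sia2 and Ncam1 lie far above the other genes, and St8sia2 separates into CTL values of 92.3 to 106.1 and TGF-β1 values of 308.5 to 357.4.

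Of the polysialyltransferases, St8sia2 was abundant and St8sia4 nearly undetected. St8sia2 (ENSMUSG00000025789.8, chr7:73939119-74013690 of GRCm38, minus strand) had 3380, 3039 and 3080 reads in CTL replicates 1, 2 and 3. It had 11143, 10040 and 10405 reads in TGF-β1 replicates 1, 2 and 3. On the CPM scale these were 103.1, 92.3 and 106.1 in CTL and 357.4, 328.5 and 308.5 after TGF-β1. The 3 CTL cultures were close together, the 3 TGF-β1 cultures were all higher, and the lowest treated culture stood well clear of the highest control. The means were 100.5 ± 7.26 CPM in CTL and 331.5 ± 24.6 CPM with TGF-β1 (n = 3 each, SD). St8sia2 rose 3.30-fold, a log2 fold change of 1.72 (standard error 0.082), with an adjusted p-value of 0.00115 from edgeR that placed it 5th of 15862 genes by p-value and 95th by size of rise. Same-numbered cultures differed by log2 ratios of 1.79, 1.83 and 1.54. The replicate 2 cultures, which stood apart in epithelial and fibroblast markers, were in the middle of the 3 treated St8sia2 values and the lowest of the 3 controls. Without both replicate 2 cultures the log2 fold change was 1.67, and St8sia2 remained called in each fit that left out 1 culture (1.67 to 1.77). It lost the call (log2 fold change 1.68, adjusted p = 0.197 from edgeR) without both replicate 1 cultures, a fit that called 0 genes at all while 1938 had an unadjusted p-value under 0.05.

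St8sia4 (ENSMUSG00000040710.9, chr1:95587682-95667571, minus strand), which encodes the other polysialyltransferase, had 16, 5 and 9 reads in CTL replicates 1, 2 and 3. It had 4, 5 and 2 reads in TGF-β1 replicates 1, 2 and 3. The groups met at 5 reads, and the sums were 30 reads in CTL and 11 after TGF-β1. The counts fell below the filter of the test, so no fold change is given. The level was 0.317 ± 0.168 CPM in CTL and 0.117 ± 0.053 CPM with TGF-β1 (n = 3 each, SD), and 1 TGF-β1 culture was under its 3-read level.

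Ncam1 (ENSMUSG00000039542.14, chr9:49502136-49798925, minus strand) encodes NCAM, an adhesion molecule of the immunoglobulin superfamily. It had 8568, 12811 and 5853 reads in CTL replicates 1, 2 and 3, and 14764, 20767 and 12966 in TGF-β1 replicates 1, 2 and 3. On the CPM scale, CTL replicates were at 261.3, 389 and 201.6 and TGF-β1 replicates at 473.6, 679.4 and 384.5. The groups overlapped narrowly, because CTL replicate 2 was above TGF-β1 replicate 3, yet within each same-numbered pair the treated culture was higher. The pair log2 ratios were 0.86, 0.80 and 0.93, a narrower spread than that within either group. Means were 284 ± 95.8 CPM in CTL and 512.5 ± 151 CPM with TGF-β1 (n = 3 each, SD). The log2 fold change was 0.85 (standard error 0.30), which did not pass the threshold without the block (adjusted p = 0.131 from edgeR). With the replicate number as a block it was 0.86 (edgeR adjusted p = 1.44e-05, standard error 0.048). DESeq2 without a block gave 0.86 (adjusted p = 0.0202), and edgeR without both replicate 2 cultures gave 0.89 (adjusted p = 0.0263).

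The order of the Ncam1 values within a group was that of the fibroblast marker sum and the reverse of the epithelial marker sum. Single epithelial markers differed: Epcam and Cdh1 had the order of their sum in both groups, Pax8 in neither, and Cdh16 only after TGF-β1. Pax8 was at 211.7, 215 and 192.3 CPM and Cdh16 at 302.4, 250.6 and 231.6 CPM in CTL replicates 1, 2 and 3. In TGF-β1 replicates 1, 2 and 3, Pax8 was at 131, 112.7 and 118.4 CPM and Cdh16 at 100.5, 69.7 and 106.3 CPM. Replicate 2 was highest for Ncam1 and for the fibroblast sum in both groups, at 2447 CPM in CTL and 2806 CPM after TGF-β1, and lowest for the epithelial sum. Replicate 3 was lowest for Ncam1 and for the fibroblast sum, at 1259 and 1483 CPM. Matrix genes made up most of the fibroblast sum, with CTL means of 838 CPM for Col1a1, 488.5 for Postn and 262 for Col3a1. Pdgfrb was at 132 CPM in CTL, while Dcn, Thy1 and Pdgfra were at 6.95, 1.16 and 1.09 CPM. Between the groups, 0 of 7 tested fibroblast markers were called in either direction. With the block 2 were called higher (Col1a1 and Postn) and 2 lower (Pdgfrb and Dcn). Neural and Schwann cell markers, which are also typical of cells with NCAM, summed to 13.95 to 18.04 CPM in CTL and 29.7 to 44.6 CPM after TGF-β1. Most of that sum was the tubulin gene Tubb3 (12.9 ± 1.74 to 34.7 ± 7.49 CPM, SD, n = 3 each), and defining markers were near 0, with at most 4 reads for Elavl3, 2 for S100b and 1 for Snap25 in any library. Sox10 had 0 to 22 reads. Ncr1, which marks natural killer cells, another NCAM-bearing type in other species, had 0 reads in all 6 cultures. The part of the marker genes in the Ncam1 values was not tested. The antisense gene Gm11149 shares 4.81% of the Ncam1 exon bases and had at most 18 reads.

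**Figure D2:**
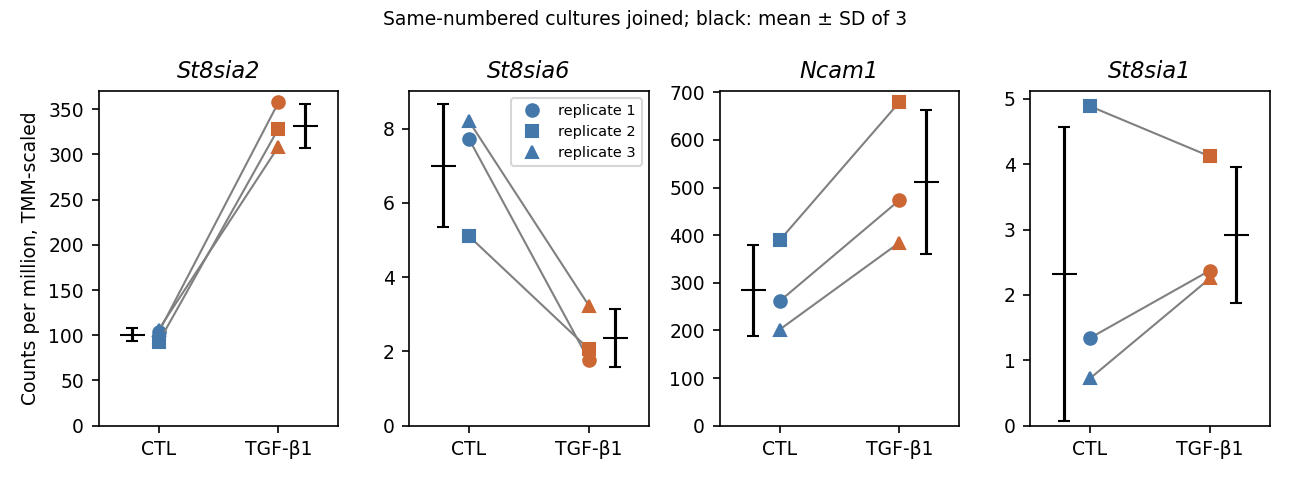
CPM of St8sia2, St8sia6, Ncam1 and St8sia1 in each culture, with lines joining same-numbered CTL and TGF-β1 cultures and black bars for the mean ± SD of 3 cultures. All lines rise for St8sia2 and Ncam1 and fall for St8sia6. For St8sia1 the replicate 2 line falls, from 4.89 to 4.12 CPM, while the others rise.

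St8sia6 moved the opposite way to St8sia2. St8sia6 (ENSMUSG00000003418.11, chr2:13651021-13794064, minus strand), whose enzyme adds sialic acid mainly to O-linked glycans, had 253, 168 and 238 reads in CTL replicates 1, 2 and 3. It had 55, 63 and 109 reads in TGF-β1 replicates 1, 2 and 3. All treated cultures were below all controls, with 7.72, 5.10 and 8.20 CPM in CTL and 1.76, 2.06 and 3.23 CPM after TGF-β1. St8sia6 fell from 7.01 ± 1.67 to 2.35 ± 0.776 CPM (SD, n = 3 each), which is 2.97-fold lower, with a log2 fold change of -1.57 (edgeR adjusted p = 0.0238, standard error 0.29). The pair log2 ratios were -2.13, -1.31 and -1.34. The call was lost without CTL replicate 1 (adjusted p = 0.105), CTL replicate 3 (0.0601), TGF-β1 replicate 1 (0.0902) or TGF-β1 replicate 2 (0.0679), at log2 fold changes of -1.49 to -1.40 from edgeR. Blocking on the replicate number gave an edgeR adjusted p-value of 0.000354. Markers of tubule cells moved in both directions. The proximal tubule markers summed to 77.6 to 93.6 CPM in CTL and 35.7 to 49.6 CPM with TGF-β1. Lrp2 made up most of that sum, at 69.6 ± 6.19 CPM in CTL and 36.5 ± 6.74 CPM with TGF-β1 (SD, n = 3 each). Of the 4 tested, 2 were called lower, Lrp2 and Aqp1. Hnf4a was lower without a call, and Cubn did not fall (log2 fold change 0.093, edgeR adjusted p = 0.699). Cdh16 and Pax8 were called lower among the 6 tubule epithelial markers. The collecting duct markers summed to 9.66 to 22.1 CPM in CTL and 30.0 to 57.3 CPM with TGF-β1, where 1 of 2 tested, Hsd11b2, was called higher, and Aqp2 and Aqp3 had at most 7 reads. Hsd11b2 made up most of that sum, at 14.71 ± 5.84 CPM in CTL and 46.25 ± 14.5 CPM with TGF-β1 (SD, n = 3 each). The other tested gene, Scnn1g, went the opposite way at 5 to 30 reads. Its log2 fold change was -1.77 (edgeR adjusted p = 0.0845, or 0.00845 with the block). The part of these tubule markers in the St8sia6 values was not tested.

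St8sia1 (ENSMUSG00000030283.6, chr6:142821545-142964452, minus strand) encodes the enzyme that starts the disialylated gangliosides. It had 44, 161 and 21 reads in CTL replicates 1, 2 and 3 and 74, 126 and 76 in TGF-β1 replicates 1, 2 and 3. On the CPM scale these were 1.34, 4.89 and 0.723 in CTL and 2.37, 4.12 and 2.25 after TGF-β1. The replicate 2 cultures were highest in both groups. The groups overlapped because CTL replicate 2 was above all treated cultures, while CTL replicates 1 and 3 were below them. Levels were 2.32 ± 2.25 CPM in CTL and 2.92 ± 1.05 CPM with TGF-β1 (n = 3 each, SD), with a log2 fold change of 0.32 (edgeR adjusted p = 0.806, standard error 0.69). The pair log2 ratios were 0.82, -0.25 and 1.64, and the sign of the fold change turned when CTL replicate 3 (-0.097) or TGF-β1 replicate 2 (-0.016) was left out. St8sia1 thus had the marker pattern of Ncam1, high where the fibroblast sum was high, and the part of those markers was not tested. Without both replicate 2 cultures the log2 fold change was 1.15 (edgeR adjusted p = 0.05985).

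St8sia5, a ganglioside sialyltransferase gene, had 0, 2 and 1 reads in CTL and 0, 0 and 1 reads in TGF-β1 cultures. St8sia3 had 0 reads in all 6 cultures, which allows a level of up to 0.0878 to 0.106 CPM, depending on the library. For neither gene could a difference be seen at this depth. Reads carried no molecular identifiers, so these limits cover counting error only.

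**Figure D3:**
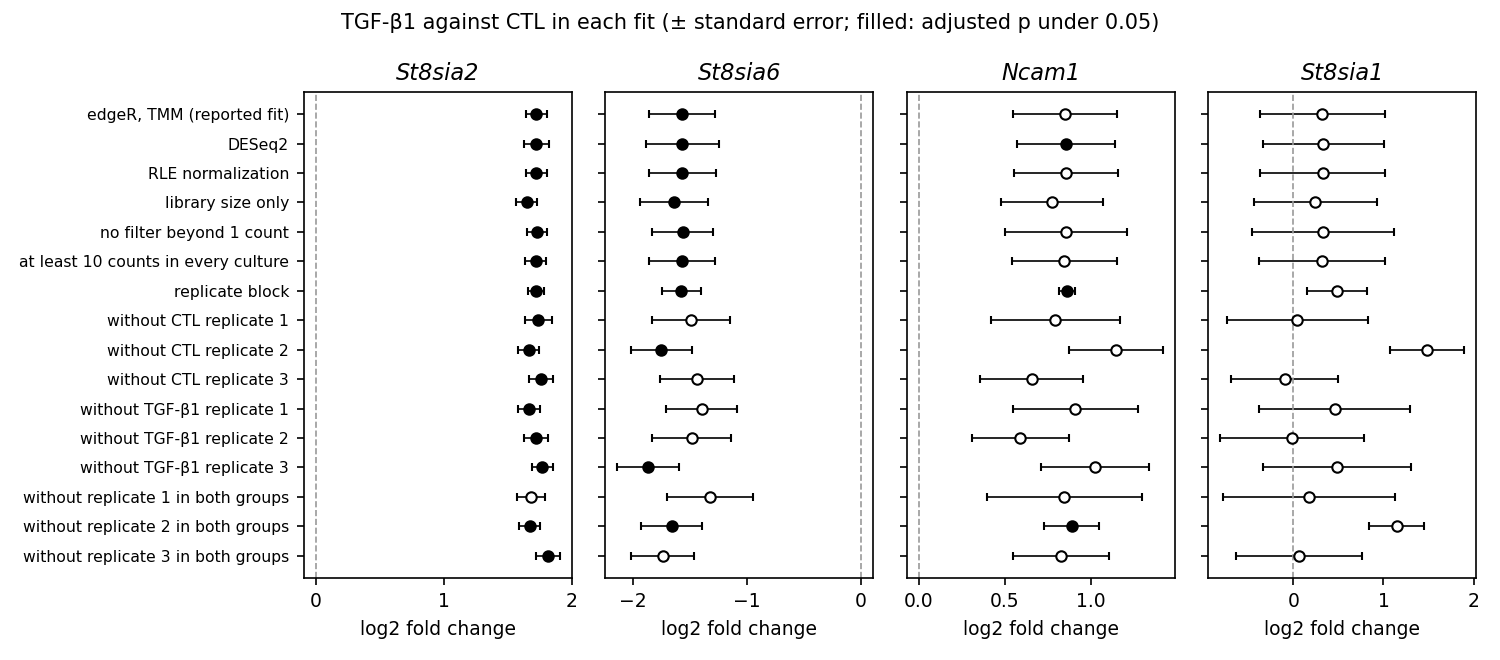
Log2 fold change of TGF-β1 against CTL (horizontal axis, ± standard error) for the 4 tested genes in each of 16 fits, named on the vertical axis. Filled points had an adjusted p-value under 0.05. St8sia2 stays between 1.65 and 1.81 and St8sia6 below 0 in each fit, Ncam1 is filled in 3 fits, and St8sia1 lies on both sides of 0.

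Levels were compared between genes as CPM per kb of exon. In CTL cultures the order was Ncam1 (32.8 ± 11.1), St8sia2 (18.7 ± 1.35), St8sia6 (0.914 ± 0.217), St8sia1 (0.248 ± 0.241) and St8sia4 (0.0158 ± 0.00837), as CPM per kb (SD, n = 3). After TGF-β1 the order was St8sia2 (61.6 ± 4.57), Ncam1 (59.2 ± 17.5), St8sia1 (0.312 ± 0.112), St8sia6 (0.307 ± 0.101) and St8sia4 (0.00583 ± 0.00264). Of these neighbours, St8sia2 and Ncam1 lay within their spread after TGF-β1, as did St8sia1 and St8sia6, while Ncam1 was above St8sia2 in each of the 3 CTL cultures. St8sia2 made up most of the ST8Sia level per kb in every culture. Its share was 94.2%, 93.4% and 94.4% in CTL replicates 1, 2 and 3 and 99.3%, 98.8% and 98.8% in TGF-β1 replicates 1, 2 and 3. The share of St8sia6 went from 4.57% ± 0.819 to 0.502% ± 0.200 (SD, n = 3 each), and the share of St8sia1 was 0.371% to 2.85% in CTL and 0.38% to 0.715% after TGF-β1.

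The transcript of the carrier exceeded that of the enzyme in CTL cultures, with an Ncam1 to St8sia2 ratio per kb of 1.58, 2.62 and 1.18 in replicates 1, 2 and 3. After TGF-β1 the ratio was 0.823, 1.29 and 0.774. It was lower within each same-numbered pair, though the groups overlapped because TGF-β1 replicate 2 was above CTL replicate 3. On the log2 scale the ratio was 0.76 ± 0.58 in CTL and -0.096 ± 0.40 with TGF-β1 (n = 3 each, SD). Per kb of the longest transcript, which is shorter for Ncam1, the log2 ratio was 1.16 in CTL and 0.30 after TGF-β1, so which transcript was in excess after TGF-β1 depended on the length used.

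**Figure D4:**
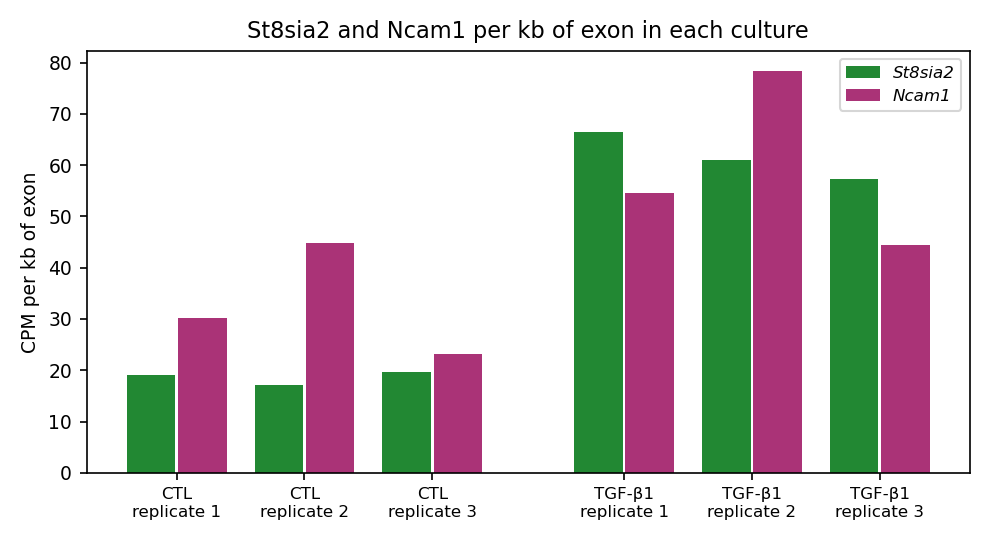
CPM per kb of exon for St8sia2 (green) and Ncam1 (purple) in each of the 6 cultures, with the axis starting at 0. Ncam1 is the taller bar in all 3 CTL cultures and in TGF-β1 replicate 2, and St8sia2 is the taller bar in TGF-β1 replicates 1 and 3.

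The genes whose log2 CPM followed each member most closely over the 6 cultures were listed among about 10910 genes at a mean of at least 5 CPM. The points share their libraries and a treatment difference, so these correlations are descriptions. For St8sia2 they were Hdac9 (r = 0.999, log2 fold change 1.82), Myh9 (r = 0.998, 0.42) and Exog (r = 0.998, 0.27), and 934 genes had r above 0.9. For Ncam1 they were Mical2 (r = 0.999, 0.60), Tagln (r = 0.998, 0.87) and Zfp9 (r = 0.998, 0.66), with 721 genes above 0.9. St8sia6 was closest to Nol4 (r = 0.996) and Nudt16l1 (r = 0.994), and St8sia1 to Fat4 (r = 0.990), Rad52 (r = 0.990) and Appl2 (r = 0.988). Between members, Ncam1 and St8sia1 deviated together from their group means (r = 0.916, n = 6 cultures), whereas Ncam1 and St8sia2 did not (r = -0.39). St8sia6 deviated opposite to Ncam1 (r = -0.767) and to St8sia1 (r = -0.681). The value was -0.664 for St8sia1 with St8sia2 and -0.058 for St8sia2 with St8sia6. Taking off the group means leaves fewer than 6 free values for each of these correlations.

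Around the polysialic acid pathway, 73 further genes were listed by role and 62 were tested. Of these, 4 were called higher (6.45%, against 5% of all tested genes) and 5 lower (8.06%, against 6.69%), so both shares were near the background. With the replicate block 14 were called higher (22.6%, against 15.1%) and 19 lower (30.6%, against 19.1%). The median log2 fold change of all tested genes was -0.0028.

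None of the 5 genes that supply activated sialic acid was called, with a median log2 fold change of 0.27. Nans, the synthase of sialic acid, had 57.3 ± 1.99 CPM in CTL and 69.4 ± 5.41 with TGF-β1 (n = 3 each, SD), with a log2 fold change of 0.28 (edgeR adjusted p = 0.0505, or 0.00955 with the block). Cmas, which couples sialic acid to its nucleotide carrier and is named here after its values were seen, was alike at 0.31 (edgeR adjusted p = 0.0545, or 0.00778 with the block). Among 6 tested genes for removing or recycling sialic acid, 0 were called (with the block 1 higher and 3 lower). The smallest p-value was that of the sialidase gene Neu2, at 5 to 33 reads per library and a log2 fold change of -1.31 (adjusted p = 0.168 from edgeR, 0.00896 with the block).

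Of 11 tested sialyltransferase genes outside the ST8Sia family, 2 fell and 0 rose (with the block 4 and 1), with a median of -0.058. St6galnac2, which acts on O-linked glycans as St8sia6 does, had 47.5, 38.1 and 32.7 CPM in CTL and 10.7, 6.58 and 12.1 CPM in TGF-β1 replicates 1, 2 and 3. Its groups were far apart, and its log2 fold change was -2.01 (edgeR adjusted p = 0.0101, standard error 0.26). St3gal6 went from 9.35 ± 0.134 to 5.21 ± 1.05 CPM (SD, n = 3 each), a log2 fold change of -0.84 (adjusted p = 0.023 from edgeR). Leaving out TGF-β1 replicate 1 ended the call of St6galnac2 (edgeR adjusted p = 0.0538). That of St3gal6 ended without CTL replicate 1 (0.106), 2 (0.0539) or 3 (0.0586) or TGF-β1 replicate 1 (0.0969).

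Of 7 ganglioside synthesis genes, Ugcg alone was called (with the block 1 higher and 2 lower), and the median was -0.13. Ugcg, which makes the first glycolipid of the pathway, rose from 98.0 ± 6.58 to 169 ± 28.2 CPM (SD, n = 3 each), a log2 fold change of 0.79 (adjusted p = 0.0157 from edgeR). Its call was lost without CTL replicate 1 (0.0819) or TGF-β1 replicate 1 (0.0575). Of 8 N-glycan genes, which build the chains that polysialic acid extends on NCAM, B4galt1 alone was called (with the block 2 higher and 2 lower), and the median was 0.031. B4galt1, a galactosyltransferase, rose from 187 ± 20.1 to 319 ± 14.2 CPM (SD, n = 3 each), a log2 fold change of 0.77 (adjusted p = 0.00687 from edgeR).

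Among the other known carriers of polysialic acid, 1 of 3 tested genes was called. Nrp2, the receptor neuropilin-2, rose from 84.7 ± 11.0 to 117 ± 8.42 CPM (SD, n = 3 each), a log2 fold change of 0.47 (adjusted p = 0.0406 from edgeR), and with library size alone as the scaling its adjusted p-value was 0.0691 at a log2 fold change of 0.40. Of the 6 fits without 1 culture, 1 called Nrp2, that without CTL replicate 3, and the edgeR adjusted p-value was 0.0572 to 0.147 in the others. Of 7 tested adhesion molecules of the immunoglobulin type other than Ncam1, 2 fell and 0 rose (with the block 3 and 2), with a median of -0.75. Bcam, a laminin receptor, went from 273, 242 and 260 CPM in CTL to 72.0, 52.3 and 85.6 CPM in TGF-β1 replicates 1, 2 and 3, a log2 fold change of -1.89 (adjusted p = 0.00494 from edgeR). L1cam, a partner of NCAM in neurons, fell by 1.31 on the log2 scale, from 137 ± 20.8 to 55.2 ± 11.3 CPM (SD, n = 3 each, adjusted p = 0.0121 from edgeR). Without CTL replicate 1 the L1cam adjusted p-value was 0.0559 from edgeR. Ncam2, the closest relative of Ncam1, had at most 6 reads per library.

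Of 11 genes for partners of NCAM in signaling, 1 rose and 1 fell (with the block 4 and 3), with a median of 0.045. Fyn, a kinase recruited by NCAM, rose from 90.1 ± 2.27 to 111 ± 10.1 CPM (SD, n = 3 each), a log2 fold change of 0.30 (adjusted p = 0.0482 from edgeR). Its call was lost under library size scaling (0.22, adjusted p = 0.0739), with at least 10 reads required in every culture (adjusted p = 0.0513) and when 1 culture was dropped, in 5 of 6 cases (0.0596 to 0.170), the exception being the fit without TGF-β1 replicate 3, which lay at the threshold. Fgfr2, a receptor for fibroblast growth factors, went from 50.8, 43.3 and 52.5 CPM in CTL to 24.5, 21.3 and 24.6 CPM in TGF-β1 replicates 1, 2 and 3, a log2 fold change of -1.06 (adjusted p = 0.00399 from edgeR). Fgfr1, the receptor gene with the highest level of the 4 and named after its values were seen, had a log2 fold change of 0.48 (edgeR adjusted p = 0.146, or 0.000147 with the block). Of 6 tested nephron progenitor genes, 0 were called (with the block 0 higher and 3 lower), and the smallest p-value was that of Osr1, at 4.70 ± 2.44 CPM in CTL and 2.32 ± 0.558 CPM with TGF-β1 (n = 3 each, SD, log2 fold change -1.02, adjusted p = 0.152 from edgeR).

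**Figure D5:**
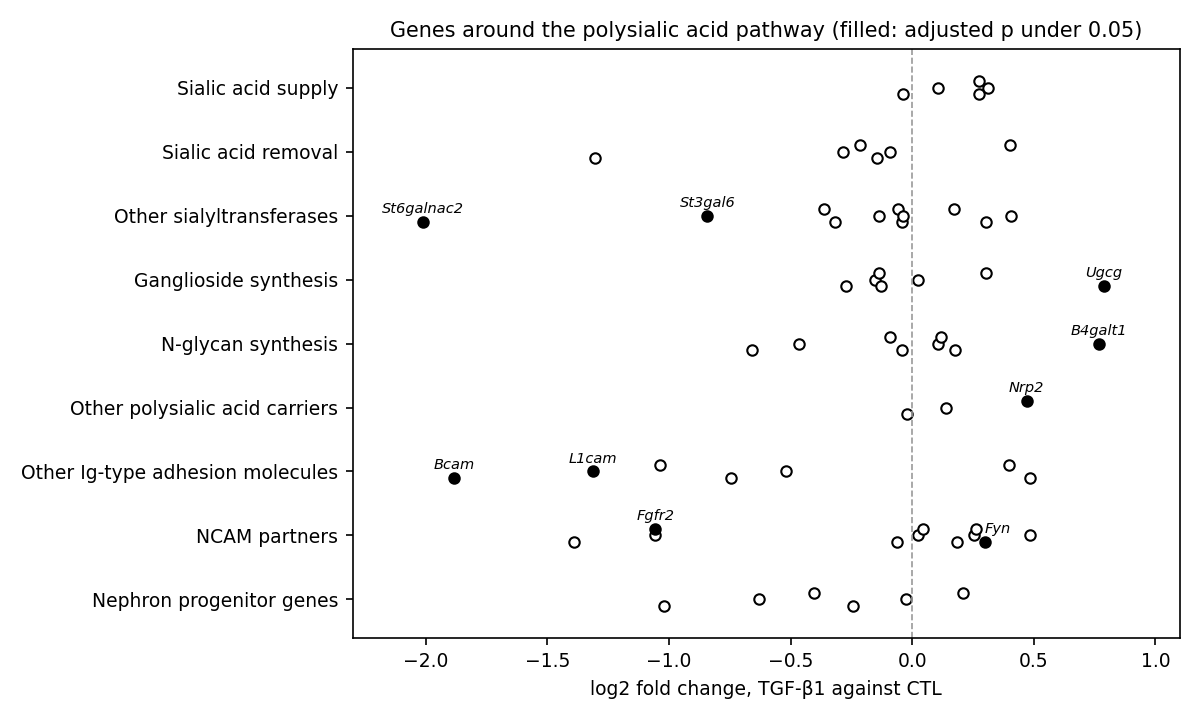
Log2 fold change of TGF-β1 against CTL (horizontal axis) for the 62 tested genes of the 9 role lists (vertical axis), with filled points for an adjusted p-value under 0.05 and the dashed line at the median of all tested genes. St3gal2 and St3gal5 stand in 2 lists. The 9 called genes spread from St6galnac2 at -2.01 to Ugcg at 0.79.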

How the data were processed

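RNA from 3 CTL and 3 TGF-β1–treated RTEC cultures was poly(A)-selected and sequenced by the authors as single 50-base reads, trimmed with Trim Galore, aligned to GRCm38 with STAR 2.4.1d and counted per gene with HTSeq 0.6.1. The deposited values are these raw read counts. HTSeq left out reads with several alignments (18.7% to 19.4% of reads) and reads on more than 1 gene (1.88% to 1.97%), and 4.16% to 4.93% lay on no gene. The strand setting and annotation release were not given in the sources used here. GENCODE M21 matched 46005 of 46517 gene identifiers without their versions.

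Counts were tested in edgeR 4.0.16 (R 4.3.3) with filterByExpr by group, TMM scaling, robust glmQLFit and the two-sided glmQLFTest, and p-values were adjusted by Benjamini-Hochberg across 15862 genes, with a threshold of 0.05. The main model had no block. Group and replicate number came from the sample labels. The labels do not state that cultures sharing a number are pairs. Deviations from group means had correlations of 0.34, 0.684 and 0.572 for cultures sharing a number and of -0.617 to 0.215 for others. The margin was small for CTL replicate 1, at 0.34 with TGF-β1 replicate 1 and 0.215 with TGF-β1 replicate 3. Deviations within a group sum to 0, so these correlations are not independent. The block was thus taken from the same data that it was fitted to. Alternatives were DESeq2 1.42.0, RLE scaling, library size only, 2 other count filters, the replicate block, the longest transcript as length, and leaving out cultures. Leaving out cultures for levels and shares was chosen after seeing the data. Figures were drawn with matplotlib 3.10.9.

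The members and lists were chosen with earlier results of these data known. All members were named. From each list up to 3 called genes per direction were named by smallest p-value, or the 1 gene with the smallest p-value where none was called. For likeness, the 3 genes with the highest Pearson r were named. Cmas and Fgfr1 were added afterwards. Some genes that these rules name are not reported here.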

Additional observations from a re-analysis of the deposited data

How the results depend on the processing

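St8sia2, St8sia6 and Ncam1 kept their direction in all 16 fits, and the median log2 fold change of all genes moved by less than 0.1 with the scaling. Without 1 culture at a time the log2 fold change was 1.67 to 1.77 for St8sia2, -1.87 to -1.40 for St8sia6, 0.59 to 1.15 for Ncam1 (called in 0 of 6) and -0.097 to 1.48 for St8sia1, which reversed without CTL replicate 3 (-0.097) and TGF-β1 replicate 2 (-0.016). Without both cultures of 1 replicate number it was 1.67 to 1.81, -1.74 to -1.33, 0.83 to 0.89 and 0.061 to 1.15, with calls lost without both replicate 1 cultures for St8sia2 (1.68) and St8sia6 (-1.33), lost without both replicate 3 cultures for St8sia6 (-1.74), and gained without both replicate 2 cultures for Ncam1 (0.89). Ncam1 was called by DESeq2 (0.86) and with the replicate block (0.86).

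Genes called higher were 793, and 1201 by DESeq2, 508 by library size, 2388 with the block, 109 (without CTL replicate 1) to 516 without 1 culture and 0 to 1084 without a replicate number. Genes called lower were 1061, and 3037 with the block, 186 (without CTL replicate 1) to 807 without 1 culture and 0 to 1290 without a replicate number. Of the listed pathway genes, 4 were higher, and 7 by DESeq2, 2 by library size, 8 with no filter beyond 1 count, 14 with the block, 1 to 3 without 1 culture and 0 to 7 without a replicate number. 5 were lower, and 19 with the block, 3 to 6 without 1 culture and 0 to 6 without a replicate number. Without replicate 3 in both groups, 95 genes were higher and 190 lower, and 0 and 2 of the listed genes. The fits without cultures test fewer samples. Per kb of the longest transcript, St8sia4 was at 0.0316 CPM per kb in CTL and 0.0117 after TGF-β1, with family shares of 0.156% and 0.0185%, and Ncam1 was at 78.1 CPM per kb after TGF-β1. The block changed the call of 5 of the 17 named pathway and target genes, all to called, with their values given above for Nans, Cmas, Neu2 and Fgfr1 and an adjusted p-value of 0.00303 for Osr1. Depth limits St8sia3, St8sia4 and St8sia5 to their read numbers.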
